A study of Homo sapiens with 6 samples.

Results

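RNA levels of 43 genes of protein import, folding and quality control in the endoplasmic reticulum (ER) were compared between M14 cells in adherent culture (2D) and M14 cells in non-adherent culture (3D). The genes came from a list of 45 named members, and each member with a row in the deposited table of 26748 genes was taken. DERL3 and HYOU1 had no row and were not analysed here. M14 is an established human melanoma line, and in the non-adherent culture it grew as melanospheres, which are floating multicellular spheres. Poly(A) RNA of 3 libraries per culture was sequenced, to characterise putative cancer stem cells in the spheres. The labels give no other treatment, no time in culture and no medium for either group, and do not say whether the 3 libraries came from separate cultures. The p-values therefore rest on the spread among these 6 libraries alone, some of which may be technical. In bulk RNA, fewer cells with a transcript and less transcript per cell cannot be told apart.

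Secreted and membrane proteins enter the ER through the SEC61 channel and fold there with the help of chaperones such as HSPA5 (BiP), lectins such as calnexin, and disulfide isomerases. Proteins that fail to fold are returned to the cytosol and degraded, a route called ER-associated degradation (ERAD). When unfolded proteins build up, the sensors IRE1 (gene ERN1), PERK (EIF2AK3) and ATF6 start the unfolded protein response. IRE1 splices the mRNA of XBP1 into the form that encodes an active transcription factor, ATF6 is cut to release another, and PERK slows translation and favours that of ATF4. The table holds 1 value per gene, so spliced and unspliced XBP1 mRNA were not separated.

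The values are read counts that the authors divided by 1 size factor per library, called normalised counts here. Between 16567763 and 19954987 reads per library were assigned to genes. One adherent library, 2D replicate 3, stood apart. Its score on the first principal component of all tested genes (68.4% of the variance) was -24.7, against -94.7 and -84.4 for 2D replicates 1 and 2 and 59.3 to 73.9 for the 3D libraries. For the members, each result below is therefore also given without that library where this changes a call. Of 7 pigment cell markers 3 averaged 10 normalised counts or more (MITF, PMEL and DCT), while SOX10, MLANA, TYR and S100B had at most 37.0 in any library. The 7 summed to 1583 to 1859.8 in 2D and 904 to 1666 in 3D. MITF and DCT were called lower in 3D (log2 difference -1.95 and -5.48), and PMEL had 1.41 (adjusted p = 0.053). Epithelial markers summed to 22295 to 59678 in 2D and 30469.6 to 41717 in 3D, mostly through keratins, and 2 of the list, EPCAM and CDH1, were called lower (-1.31 and -3.89). Of 4 markers of plasma cells, a cell type with an enlarged ER, JCHAIN and IGKC had no row. The other 2 summed to at most 6.79 in any library. Leukocyte markers, of which CD3E had no row, summed to 21.9 to 64.8 in 2D and 76.6 to 129 in 3D, and endothelial markers to 39.5 to 309 and 33.9 to 46.4. In the fibroblast list COL1A2, LUM and PDGFRA had no row. The list summed to 1980.4 to 6003 in 2D and 8282 to 11966 in 3D, through the collagens COL1A1 and COL3A1, and DCN was at or near 0 in each library. COL3A1 was called higher in 3D (log2 difference 2.89, limma adjusted p = 0.0065), and COL1A1 was not called (0.97, adjusted p = 0.066). The upper end of each 2D marker range above came from 2D replicate 3. In KRT8 (44355), CDH5 (268) and SOX10 (37.0) that library was above all others, which had at most 28676, 25.7 and 6.41. In MITF (887) it lay between the other 2D libraries and the 3D libraries. Whether the marker differences have a part in the results below was not tested.

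In the spheres, 8 of the 9 ER genes that changed were lower: the sensor ATF6, the regulator XBP1, the chaperones HSPA5 and CANX, ERP44 of the oxidoreductase group, the import genes SEC61A1 and SEC63, and SEL1L of ERAD. PDIA5, an isomerase, was higher. Of the 43 members, 42 averaged 10 normalised counts or more and were tested. ATF6B, at 0 to 9.61, was not. The test was limma on log2(normalised count + 1), with a Benjamini-Hochberg adjusted p under 0.05 over all genes. These 9 of 42 members compare with 24.1% of the 15598 genes tested that were called in either direction. By direction, 8 members were lower against 11.6% of all genes, and 1 was higher against 12.5%. The median log2 difference (3D minus 2D) was -0.24 over the 42 members and -0.02 over all genes tested. It was negative in 32 members and positive in 10, and 25 members moved by less than 0.5 in either direction. The 95% interval lay within 1 log2 unit of no difference, that is within a doubling or halving, for 25 of the 42.

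Much of this count depended on which libraries were compared. Leaving out 2D replicate 3 gave 22 called members beside 45.6% of all genes tested, 17 of them lower (23.0% of genes) and 5 higher (22.6%). Leaving out 3D replicate 2 gave 5 lower and 1 higher, beside 19.1% of genes in either direction. XBP1 and PDIA5 were the only members called when any other single library was left out, and the share of all genes called was then 9.93% (2D replicate 1 out), 11.5% (2D replicate 2), 8.38% (3D replicate 1) and 7.63% (3D replicate 3). With 2D replicate 3 and 3D replicate 2 both out, a setting added after the data were seen, 29 members were called (58.0% of genes), 23 lower (29.5%) and 6 higher (28.4%). On recovered whole reads edgeR called 10 members (23.4% of genes), 9 lower (11.0%) and 1 higher (12.5%), and DESeq2 13 (30.3%), 11 lower (14.8%) and 2 higher (15.4%). Both kept the 9 calls of limma and added HERPUD1, and DESeq2 also added ERN1, DNAJB9 and CRELD2. Scaled to equal library totals, limma called 4 members lower (8.03% of genes) and 2 higher (15.3%), 6 in all (23.4%): HSPA5, CANX, SEC63 and SEL1L no longer passed, and CRELD2 did. The values of both cultures did not overlap for 17 members, 14 of them lower and 3 higher in 3D, beside 43.1% of all genes tested (22.6% lower, 20.5% higher).

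**Figure D1:**
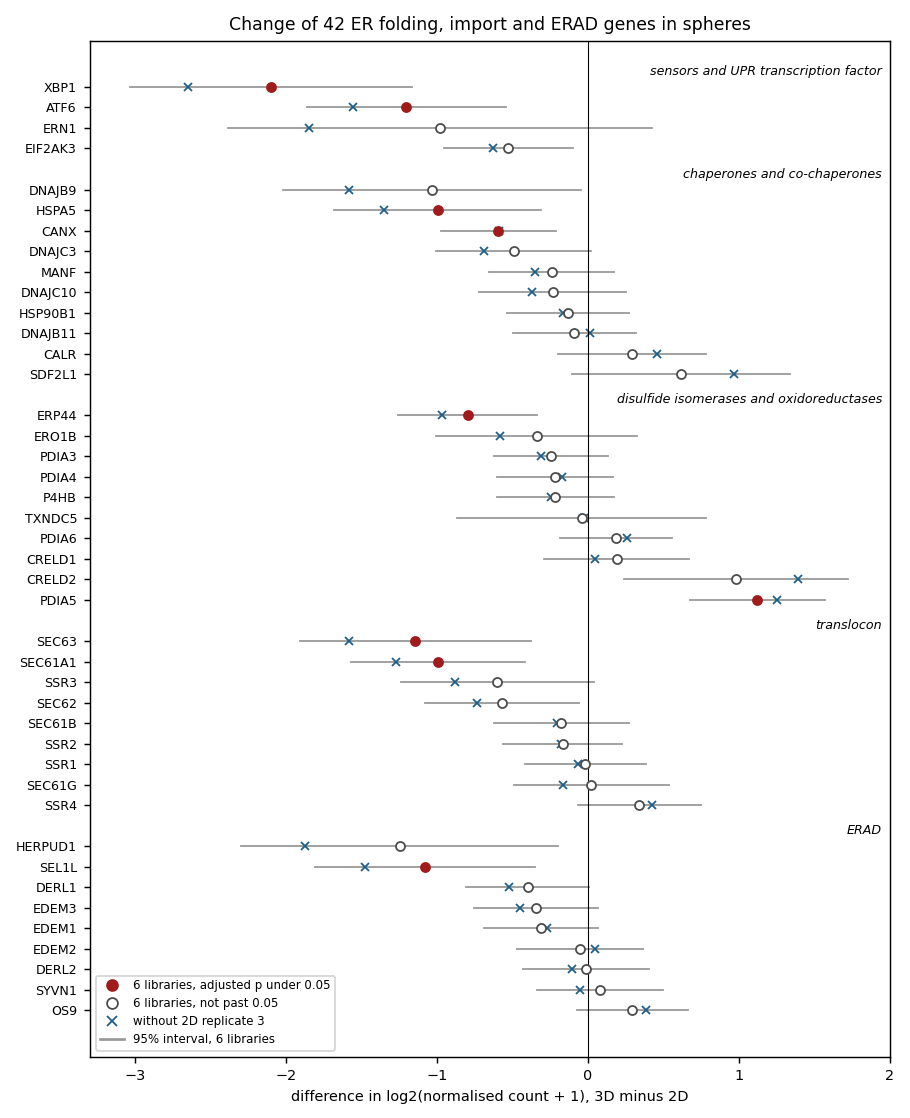
Difference in log2(normalised count + 1) between 3D and 2D for 42 members, grouped by role, with a 95% interval; filled circles passed adjusted p under 0.05 and crosses show the fit without 2D replicate 3. XBP1 has the lowest value at -2.10 and PDIA5 the highest at 1.12, and most isomerases lie close to 0.

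A short DNA element links several of these genes in the literature of the unfolded protein response, and the stretches that carry it are shown here so that the members can be compared by promoter as well as by role. The ER stress response element (ERSE) consists of CCAAT, 9 bases of any kind and CCACG, and the shorter ERSE-II of ATTGG, 1 base of any kind and CCACG. The factors that bind them include ATF6 together with the CCAAT factor NF-Y. Both were searched on both strands in RefSeq promoter windows (GRCh38.p14, from 250 bases before to 50 bases after each annotated start). Windows were found for 41 members. ERSE was present in 8 of them (19.5%), against 16 of 11030 tested genes with a window (0.145%), and ERSE-II in 2 (4.88%), against 14 (0.127%). The members are among these tested genes, so 8 of the 16 and 2 of the 14 are the members themselves. These elements were described in promoters of genes such as HSPA5, so their presence among the members is not independent of the list. In the stretches below, each upstream of the RefSeq start and written 5′ to 3′ on the gene's strand, the fixed bases of an element are in capitals.
HSPA5: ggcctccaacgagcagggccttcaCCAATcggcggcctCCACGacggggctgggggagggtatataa
XBP1: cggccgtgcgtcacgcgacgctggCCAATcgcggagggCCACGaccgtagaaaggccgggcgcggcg
HSP90B1: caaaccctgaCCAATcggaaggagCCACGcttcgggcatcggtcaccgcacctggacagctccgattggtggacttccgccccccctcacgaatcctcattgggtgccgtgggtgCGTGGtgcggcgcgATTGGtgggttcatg
CANX: tcccggCCAATcttcacactCCACGaagaa
CALR: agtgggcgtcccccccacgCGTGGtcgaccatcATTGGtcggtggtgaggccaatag
CRELD2: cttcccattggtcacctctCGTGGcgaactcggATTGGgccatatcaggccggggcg
ERO1B: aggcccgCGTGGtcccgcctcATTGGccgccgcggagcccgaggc
PDIA6: cccggaCCAATgagccgcagCCACGgcttg
HERPUD1: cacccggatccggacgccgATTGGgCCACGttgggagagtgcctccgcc
SDF2L1: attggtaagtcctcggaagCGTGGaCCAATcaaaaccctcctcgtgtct

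The stretches lie at chr9:125241367-125241433, minus strand (HSPA5), chr22:28800579-28800645, minus strand (XBP1), chr12:103930206-103930349, plus strand (HSP90B1), chr5:179698772-179698801, plus strand (CANX) and chr19:12938365-12938421, plus strand (CALR). Those of the other genes lie at chr22:49918535-49918591, plus strand (CRELD2), chr1:236282164-236282208, minus strand (ERO1B), chr2:10812848-10812877, minus strand (PDIA6, at its second listed start), chr16:56932006-56932054, plus strand (HERPUD1) and chr22:21642095-21642143, plus strand (SDF2L1). HERPUD1 and SDF2L1 carry ERSE-II and the others ERSE, which stands in both orientations in HSP90B1.

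Of the 10 members with ERSE or ERSE-II, XBP1, HSPA5 and CANX fell with 6 libraries, and none rose (11.6% and 12.5% of all genes tested). The median log2 difference of these 10 was -0.24, from -2.10 in XBP1 to 0.98 in CRELD2, and that of the 30 tested members with a window and neither element was -0.22, of which 5 fell and 1 rose. The log2 differences of the genes with ERSE-II had opposite signs without passing the test: HERPUD1 had one of -1.25 (adjusted p = 0.079) and SDF2L1 of 0.62 (adjusted p = 0.18). Without 2D replicate 3 both passed the limma test, HERPUD1 at -1.88 (adjusted p = 9.1e-05) and SDF2L1 at 0.97 (adjusted p = 0.0070). That fit also called CRELD2 (1.39, adjusted p = 0.00036) and CALR (0.46, adjusted p = 0.048) higher and kept XBP1, HSPA5 and CANX lower. Of all genes tested it called 23.0% lower and 22.6% higher. TGACGTG, a core of an element whose binding factors include XBP1, was found in 6 members (14.6%, against 3.36% of tested genes). The 6 were DNAJC10, SEC61A1, SEC62, SSR3, SSR4 and TXNDC5. Only SEC61A1 of these fell with 6 libraries. Without 2D replicate 3, SEC62 (-0.74, limma adjusted p = 0.015) and SSR3 (-0.88, adjusted p = 0.0098) were also called lower. The matches of SEC61A1, SSR3, SSR4 and TXNDC5 lie at a listed start after the first. The ATF4 element TGATGNAA was found in HERPUD1 (2.71% of tested genes). A match describes the letters in the window only.

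**Figure D2:**
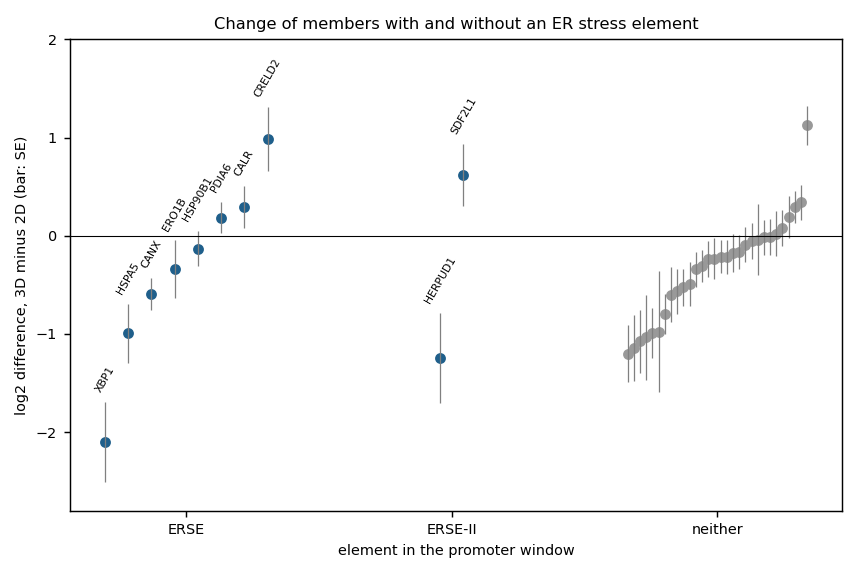
Log2 difference (3D minus 2D) with its standard error for members with ERSE, with ERSE-II or with neither element in a promoter window. Members with an element spread from XBP1 at -2.10 to CRELD2 at 0.98, on both sides of 0.

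The regulator XBP1 and the sensor ATF6 fell, and the other sensors did not pass the limma test with 6 libraries. Of 4 tested genes in this group 2 fell and none rose, beside 11.6% and 12.5% of all genes tested. The median log2 difference was -1.09. XBP1 (ENSG00000100219, chromosome 22, 28794555 to 28800597, GRCh38) had 13724, 11091 and 3923 normalised counts in 2D replicates 1, 2 and 3, and 1985, 1809 and 2113 in the 3D libraries in the same order; its promoter carries the ERSE shown above. All 3D libraries were low and close together, and 2D replicate 3 lay between them and the other 2D libraries. The mean was 9579.5 ± 5072 (SD, n = 3) in 2D and 1969 ± 153 in 3D, 4.28-fold lower by the log2 difference (log2 difference -2.10, SE 0.41, limma adjusted p = 0.0099). It passed whichever single library was left out, with adjusted p from 1.9e-05 to 0.044, and without 2D replicate 3 the log2 difference was -2.65.

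ATF6 (ENSG00000118217, chromosome 1, 161766294 to 161964070), the membrane-bound precursor of a transcription factor, had 2247, 2445 and 1118 in 2D and 751, 886 and 756 in 3D. Every 3D library was below every 2D library, with 2D replicate 3 the nearest (log2 difference -1.20, SE 0.29, limma adjusted p = 0.021). Of the 6 leave-one-out fits, the one lacking 2D replicate 3 (-1.56) and the one lacking 3D replicate 2 kept the call, and adjusted p ran from 0.00013 to 0.083. ERN1, which encodes the kinase and RNase IRE1, had 963, 1157 and 174 in 2D and 308, 286 and 286 in 3D. Here 2D replicate 3 was below all 3D libraries, while 2D replicates 1 and 2 were more than 3 times as high as any of them. ERN1 did not pass with 6 libraries (log2 difference -0.98, SE 0.62, limma adjusted p = 0.27) and passed without 2D replicate 3 (log2 difference -1.84, adjusted p = 9.7e-05). DESeq2 called it with 6 libraries (-1.35, adjusted p = 0.038) and edgeR did not (adjusted p = 0.11). EIF2AK3, the kinase PERK, had 612, 623 and 498 against 442, 361 and 398. Its cultures did not overlap, and the difference of -0.53 (95% interval -0.95 to -0.10) missed the threshold at adjusted p = 0.072, passing at 0.015 without 2D replicate 3. An antisense gene covers 14.4% of the exon bases of EIF2AK3, and reads there cannot be assigned to either gene, since the library kit does not mark the strand. ATF6B, the close relative of ATF6, had 0 to 9.61 normalised counts in both cultures.

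**Figure D3:**
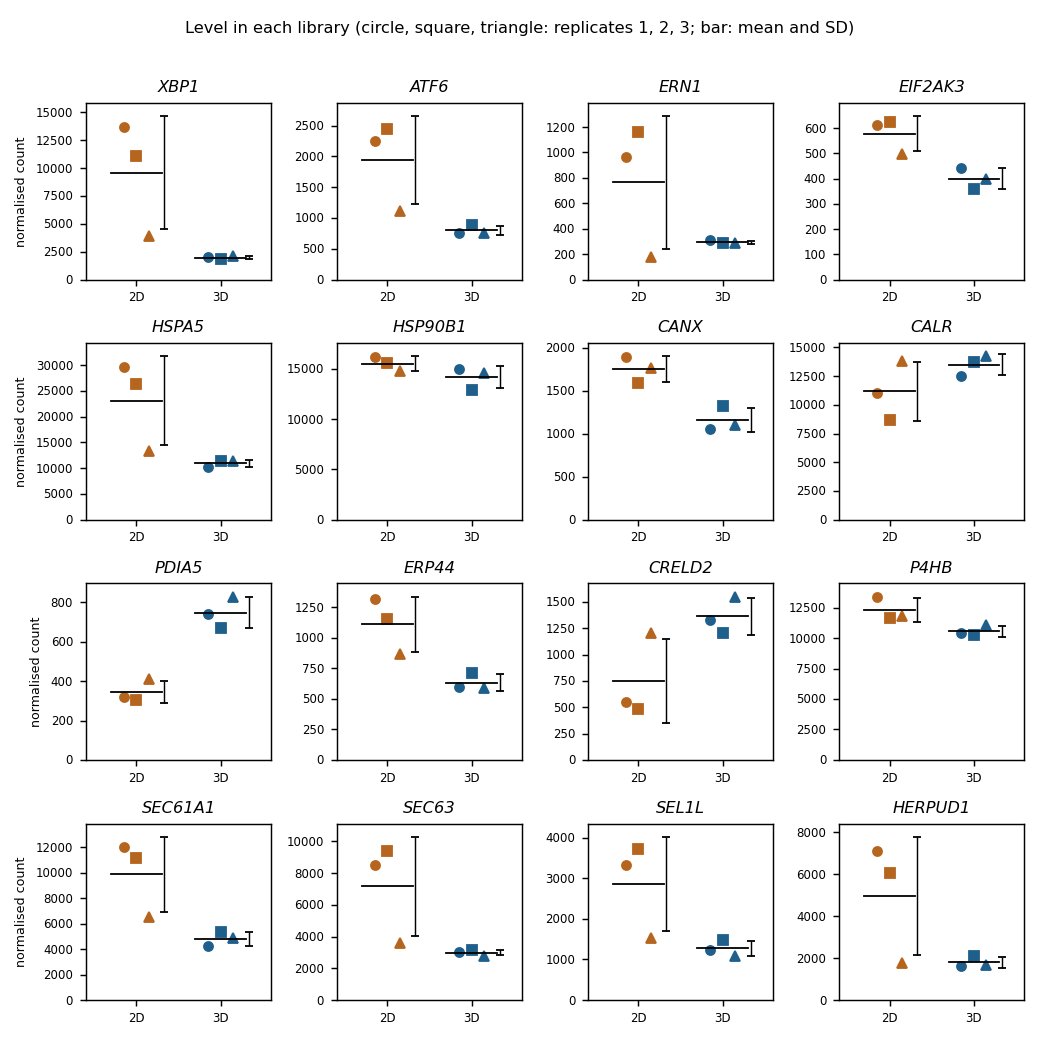
Normalised count of 16 members in each library (circle, square and triangle for replicates 1, 2 and 3), with mean and SD of 3 libraries. In XBP1, ATF6, HSPA5, SEC61A1, SEC63 and SEL1L the triangle of 2D replicate 3 lies between the other 2D libraries and the 3D libraries, and HSP90B1 and P4HB stay at a similar level in both cultures.

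Among 10 tested chaperones and co-chaperones HSPA5 and CANX fell and none rose, beside 11.6% and 12.5% of all genes tested. The median log2 difference was -0.24. HSPA5 (ENSG00000044574, chromosome 9, 125234853 to 125241330), the HSP70 chaperone of the ER that also holds the sensors inactive, had 29552, 26402 and 13296 normalised counts in 2D and 10181, 11353 and 11332 in 3D. The cultures did not overlap, but 2D replicate 3 was closer to the 3D libraries than to the other 2D libraries (log2 difference -0.995, SE 0.30, limma adjusted p = 0.044). Its call held in 1 of the 6 leave-one-out fits, the one without 2D replicate 3 (-1.35, adjusted p = 0.00028), and reached 0.14 in the others. CANX, which encodes the membrane lectin calnexin, fell from 1749.5 ± 149.7 to 1161 ± 143 (log2 difference -0.59, SE 0.17, limma adjusted p = 0.035). In CANX 2D replicate 3 (1760.0) was between 2D replicates 1 (1894) and 2 (1595), and the 3D libraries had 1059, 1324 and 1101. Of the leave-one-out fits of CANX, those lacking 2D replicate 3 and lacking 3D replicate 2 kept the call, with adjusted p from 0.018 to 0.14.

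HSP90B1, the HSP90 paralog of the ER (GRP94), did not pass the test. It had 16201, 15546 and 14745 in 2D and 15019.6, 12926 and 14555 in 3D, overlapping ranges with a 95% interval of the log2 difference of -0.54 to 0.27 (limma adjusted p = 0.61). CALR, the soluble lectin calreticulin, had 11027, 8701 and 13843 and 12488, 13767 and 14213, and 2D replicate 3 was as high as the 3D libraries. The difference of 0.29 did not pass (adjusted p = 0.34), and without 2D replicate 3 it was 0.46 (adjusted p = 0.048). DNAJB9, a J-domain partner of HSPA5 that is induced by XBP1, had 758, 657 and 224 against 229, 295 and 191. Its 2D replicate 3 lay within the 3D range. With 6 libraries DNAJB9 did not pass limma (-1.03, adjusted p = 0.11) or edgeR (adjusted p = 0.076) and passed DESeq2 (-1.17, adjusted p = 0.025). Without 2D replicate 3 it passed limma (-1.58, adjusted p = 0.00075). SDF2L1, which works with HSPA5 and its J-domain partners, had 781, 590.3 and 1409 in 2D and 1320.3, 1069 and 1657 in 3D, and again 2D replicate 3 lay within the 3D range, here above the other 2D libraries. The J-domain proteins DNAJC3, DNAJC10 and DNAJB11 and the secreted factor MANF had log2 differences of -0.49, -0.23, -0.09 and -0.24, none past the threshold (adjusted p of 0.14 to 0.74). DNAJC3 passed without 2D replicate 3 (-0.68, adjusted p = 0.015).

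Of 10 tested disulfide isomerases and oxidoreductases, PDIA5 rose and ERP44 fell, with a median log2 difference of -0.13. These counts are near the shares of all genes tested that rose (12.5%) and fell (11.6%). PDIA5 (ENSG00000065485, chromosome 3, 123067062 to 123225227), an isomerase known for its part in ATF6 activation, had 318, 305 and 410.2 in 2D and 743, 672 and 829.9 in 3D. All 3D libraries were above all 2D libraries by a wide gap (log2 difference 1.12, SE 0.20, limma adjusted p = 0.0066), a 2.18-fold higher level. The call held in each of the 6 leave-one-out fits (adjusted p 0.00061 to 0.042). SEC22A, on the same strand, covers 12.2% of the exon bases of PDIA5. ERP44, which retains client proteins and ERO1 enzymes in the early secretory pathway, had 1313, 1149 and 866 and 593, 709.6 and 591. The cultures did not overlap (log2 difference -0.80, SE 0.20, limma adjusted p = 0.025), and the leave-one-out fits lacking 2D replicate 3 and lacking 3D replicate 2 kept the call (adjusted p from 0.0019 to 0.11 in the 6 fits).

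The abundant isomerases did not pass with 6 libraries or in any leave-one-out fit. P4HB, the archetypal protein disulfide isomerase, had 13412, 11640.1 and 11786 in 2D and 10379.5, 10237 and 11088 in 3D, which do not overlap but differ by only -0.21 on the log2 scale (95% interval -0.60 to 0.18, adjusted p = 0.38). PDIA3, PDIA4 and PDIA6 had differences of -0.24, -0.22 and 0.19 (adjusted p of 0.30, 0.37 and 0.42), and their 95% intervals were -0.62 to 0.14, -0.60 to 0.17 and -0.18 to 0.56. An overlapping gene on the other strand, ATP6V1C2, shares 25.2% of the exon bases of PDIA6, and ELL3 14.8% of those of PDIA3. CRELD2, an ER-stress-induced protein with isomerase activity, had 549.9, 485 and 1209 against 1331, 1207 and 1551: 2D replicates 1 and 2 were low, and 2D replicate 3 was level with 3D replicate 2. It missed the threshold (log2 difference 0.98, SE 0.33, limma adjusted p = 0.058) and passed without 2D replicate 3 at 1.39 (adjusted p = 0.00036). It also passed DESeq2 (adjusted p = 0.043) and limma with equal library totals (adjusted p = 0.041). Its relative CRELD1 (0.19, adjusted p = 0.53) and the oxidase ERO1B (-0.34, adjusted p = 0.42) did not pass. Counts of TXNDC5 are uncertain, because the readthrough gene BLOC1S5-TXNDC5 holds 60% of its 75-base windows. It had 622, 594 and 625 in 2D and 418, 1157 and 438 in 3D, with 3D replicate 2 apart.

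At the translocon, the channel subunit SEC61A1 and its partner SEC63 fell and none of 9 genes rose (11.6% and 12.5% of all genes tested). The median log2 difference was -0.18. SEC61A1 (ENSG00000058262, chromosome 3, 128051641 to 128071683), which forms the pore, had 11998, 11135 and 6505 in 2D and 4245, 5325 and 4886 in 3D. The lowest 2D library, replicate 3, was above the highest 3D library (log2 difference -0.99, SE 0.25, limma adjusted p = 0.025). The leave-one-out fits lacking 2D replicate 3 (-1.27) and lacking 3D replicate 2 kept the call, with adjusted p from 0.00038 to 0.10 in the 6 fits. SEC63, a J-domain protein that recruits HSPA5 to the channel, had 8524, 9373 and 3572 and 3032, 3132 and 2795. As in HSPA5, 2D replicate 3 was near the 3D level (log2 difference -1.14, SE 0.34, limma adjusted p = 0.041), and of the leave-one-out fits only that without 2D replicate 3 kept the call (-1.58, adjusted p = 8.5e-05).

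The small channel subunits did not pass the test. SEC61B and SEC61G had log2 differences of -0.18 and 0.02 (adjusted p = 0.53 and 0.95), and the sign of SEC61G turned without 2D replicate 3 (-0.17). Whether these subunits differ from SEC61A1 in their change was not tested. SEC62, which acts with SEC63, had -0.57 (adjusted p = 0.095), passing at -0.74 without 2D replicate 3. The 4 subunits of the translocon-associated protein complex, which aids insertion of some nascent chains, ranged from -0.60 (SSR3) over -0.17 (SSR2) and -0.02 (SSR1) to 0.34 (SSR4), none past the threshold (adjusted p of 0.15 to 0.95). SSR4 had 4017, 3200.4 and 4252 in 2D and 4782, 4386 and 5299.6 in 3D, so that all 3D libraries were above all 2D libraries. SSR3 passed without 2D replicate 3 (-0.88, adjusted p = 0.0098).

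**Figure D4:**
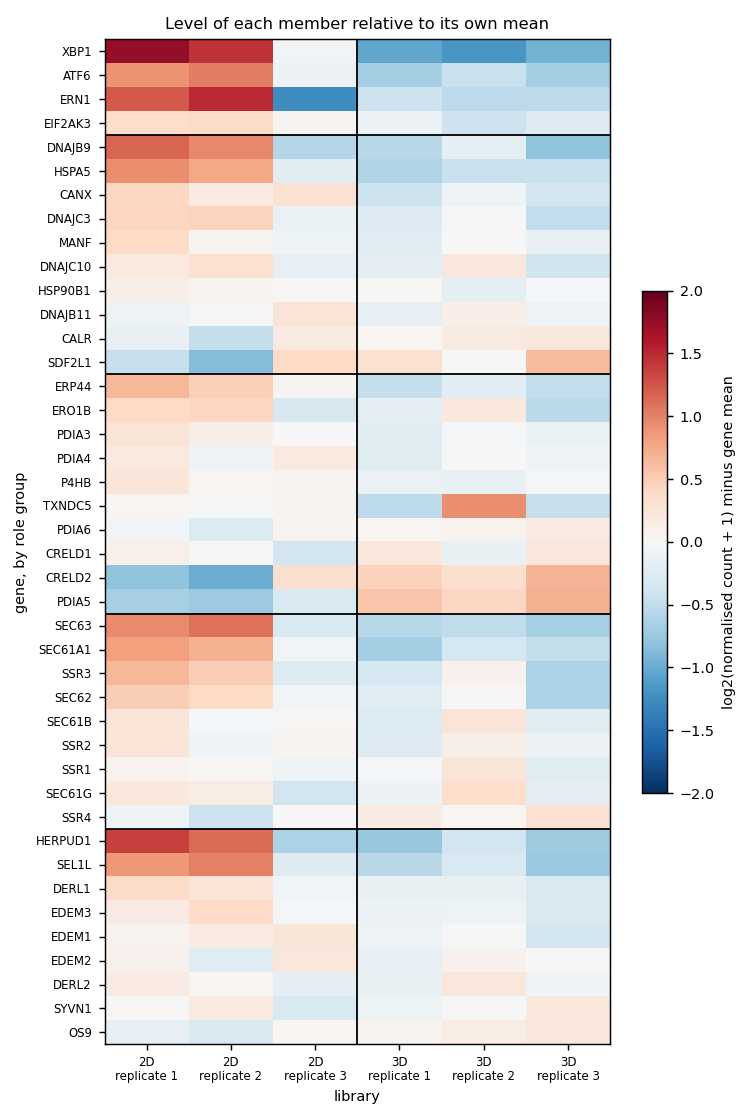
Log2(normalised count + 1) of the 42 tested members in each library, minus the mean of the gene over the 6 libraries, in role groups separated by lines. In the rows of XBP1, ERN1, HSPA5, DNAJB9, SEC63, HERPUD1 and SEL1L the third adherent library is closer in colour to the spheres than to the other 2D libraries, and SDF2L1 and CRELD2 show the same with the opposite sign.

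Of 9 tested ERAD genes SEL1L fell and none rose, and the median log2 difference was -0.31. The count lower is near the share of all genes tested that fell (11.6%, with 12.5% higher). SEL1L (ENSG00000071537, chromosome 14, 81471549 to 81533861), the adaptor of the ubiquitin ligase SYVN1 (HRD1), had 3334, 3712 and 1535 in 2D and 1244, 1479 and 1097 in 3D (log2 difference -1.08, SE 0.32, limma adjusted p = 0.041). The 2D replicate 3 value was just above the highest 3D value, and of the leave-one-out fits only that without 2D replicate 3 kept the call (-1.48, adjusted p = 0.00027). SYVN1 itself had 1712, 1972 and 1404 against 1613, 1731 and 2002, overlapping ranges with a difference of 0.08 (95% interval -0.34 to 0.50). HERPUD1, a stress-induced organiser of the same ligase complex, had 7092, 6036 and 1768 in 2D and 1616, 2101 and 1669 in 3D. Here 2D replicate 3 lay within the 3D range, far below 2D replicates 1 and 2, and HERPUD1 did not pass limma with 6 libraries (values above, beside its ERSE-II). On the recovered reads of the 6 libraries it passed edgeR (-1.44, adjusted p = 0.048) and DESeq2 (-1.44, adjusted p = 0.0052).

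The lectins and mannosidases that pick ERAD clients did not pass with 6 libraries. EDEM1, EDEM2 and EDEM3 had differences of -0.31, -0.05 and -0.34, and OS9, which delivers glycoproteins to SEL1L, had 0.30 (adjusted p of 0.19 to 0.86). The membrane proteins DERL1 and DERL2 had -0.40 and -0.01 (adjusted p = 0.13 and 0.97). Without 2D replicate 3, EDEM3 and DERL1 were called lower (-0.45 and -0.53) and OS9 higher (0.39). An antisense gene covers 13.5% of the exon bases of OS9.

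Each of the 22 members called without 2D replicate 3 was also placed by that library. On the log2 scale 2D replicate 3 was nearer to the 3D mean than to the mean of the other 2D libraries in 19 of the 22, and beyond the 3D mean in 5 (ERN1, DNAJB9, SDF2L1, CALR and HERPUD1). The exceptions were EIF2AK3, PDIA5 and CANX. In EIF2AK3 it lay 49.4% of the way from the other 2D libraries to 3D and in PDIA5 31.5%, while in CANX it stayed with the other 2D libraries. The 22 were chosen by the contrast between 2D replicates 1 and 2 and 3D, so this places 1 library and tests nothing. The same count was not made over all 7111 genes called without 2D replicate 3. The 19 of 22 can therefore not be called particular to the members.

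The members together took 0.964%, 0.920% and 0.706% of the reads of 2D replicates 1, 2 and 3, and 0.689%, 0.730% and 0.694% in 3D. The share of 2D replicate 3 was thus within the 3D range. Isomerases and oxidoreductases took 0.179% ± 0.00721 (SD, n = 3) in 2D and 0.181% ± 0.00463 in 3D, and chaperones 0.317% ± 0.0389 and 0.274% ± 0.00284. The order of the most abundant members differed between cultures when levels were divided by exon length. HSPA5 had 7562, 6756 and 3402 normalised counts per kb of exon in 2D and 2605, 2905 and 2899.7 in 3D. CALR had 4063, 3206 and 5101, and 4602, 5073 and 5237. HSPA5 ranked first of the 43 members in 2D replicates 1 and 2, and CALR ranked first in 2D replicate 3 and in each 3D library. XBP1 ranked 2 in 2D replicates 1 and 2, at 4532 and 3663 per kb, and between 13 and 15 in 3D. HSP90B1, at 2753 to 3451 per kb over the 6 libraries, ranked between 2 and 4 in each. In 3D the values of HSPA5 and HSP90B1 overlapped, with means of 2803 ± 172 and 3017 ± 234 per kb (SD, n = 3).

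**Figure D5:**
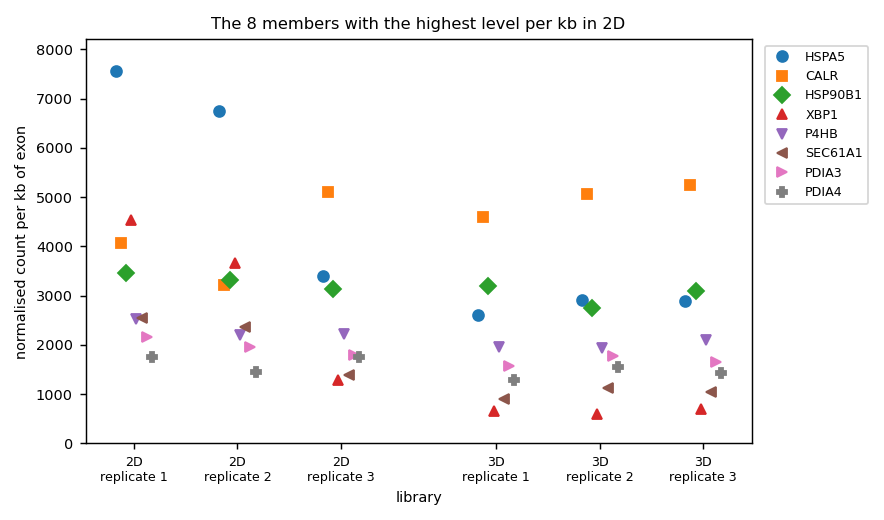
Normalised count per kb of exon in each library for the 8 members with the highest mean in 2D. HSPA5 is the highest in 2D replicates 1 and 2, and CALR in 2D replicate 3 and the 3D libraries.

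Genes around the members were read from 9 further lists of the secretory pathway, 114 genes with a row, all of them tested: 23 fell and 4 rose, with a median log2 difference of -0.34. Of all genes tested, 11.6% fell and 12.5% rose. With equal library totals 14 of the 114 were called lower and 9 higher (8.03% and 15.3% of all genes). By edgeR 21 and 4 were called (11.0% and 12.5%), and by DESeq2 31 and 7 (14.8% and 15.4%). When 2D replicate 3 was left out, 50 and 12 were called (23.0% and 22.6%). Of the 27 genes called by limma with 6 libraries 9 stayed called in each leave-one-out fit, 27 without 2D replicate 3, 21 without 3D replicate 2 and 9 to 12 without one of the others. Of 13 genes of the PERK and ATF4 arm 6 fell and none rose, with a median of -1.54. The 6 were ATF4, ATF3, PPP1R15A, PPP1R15B, NUPR1 and NFE2L2. ATF3, PPP1R15A and PPP1R15B kept the call in each of the 6 leave-one-out fits. ATF4 kept it only without 2D replicate 3 (limma adjusted p up to 0.13 in the others), and NFE2L2 in 2 fits (up to 0.079). PPP1R15A, which brings a phosphatase to eIF2-alpha and so restores translation, had 6007, 5250.0 and 1632 in 2D and 349, 518 and 362 in 3D (log2 difference -3.20, SE 0.45, limma adjusted p = 0.0028), and the cultures did not overlap. Its constitutive relative PPP1R15B had 13681, 13518 and 13308 and 5263, 3214 and 4826. In PPP1R15B and in ATF3 (2636, 2167 and 2538 against 279, 332 and 265) 2D replicate 3 was as high as the other 2D libraries, unlike in most ER genes above. NUPR1, a stress-induced nuclear protein, had 2934, 2228 and 23.6 in 2D and 2.78, 24.2 and 8.26 in 3D (log2 difference -5.83, SE 1.64, limma adjusted p = 0.035), with 2D replicate 3 inside the 3D range. Of the leave-one-out fits of NUPR1 only that lacking 2D replicate 3 kept the call. In that fit 11 of the 13 genes were called lower, beside 23.0% of all genes. By edgeR 8 of the 13 were lower (11.0% of all genes), and by DESeq2 9 (14.8%). With equal totals 5 were lower (8.03%), without ATF4 (limma adjusted p = 0.056).

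Of 14 genes of targeting to the ER 6 fell and none rose (median -0.57), beside 11.6% and 12.5% of all genes tested. Among the 6 were SRP54, SRP68 and SRP72 of the signal recognition particle and the receptor subunit SRPRA. TRAM1, a membrane protein beside the channel, fell from 4416 ± 1613 to 1257 ± 371 (log2 difference -1.78, SE 0.32, limma adjusted p = 0.0077). SRPRA fell by 0.69 and SRP68 by 0.75 on the log2 scale. The count of this list varied with the method. Without 2D replicate 3, 8 were lower (23.0% of all genes). DESeq2 called 8 lower and 1 higher (14.8% and 15.4%), and edgeR 3 lower (11.0%). With equal library totals 2 were lower and 1 higher (8.03% and 15.3%). SRP54 and SRP72 were not called by edgeR (adjusted p = 0.067 and 0.054), nor were SRP54, SRP68 and SRP72 with equal totals (0.10, 0.052 and 0.078). Of 16 further ERAD genes 1 rose and 4 fell, beside 12.5% and 11.6% of all genes tested. UBE2G2 rose (1536 ± 158 to 3335 ± 847, log2 difference 1.09, limma adjusted p = 0.011). The E2 enzyme UBE2J1 (-0.92) and HERPUD2 (-1.10) fell, as did FAF2 (-0.75) and NPLOC4 (-0.63), which help extract proteins from the membrane. FAF2 and NPLOC4 were not called with equal totals (adjusted p = 0.057 and 0.058).

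Of 12 genes of ATF6 activation and related factors 2 rose and 3 fell (median -0.16), beside 12.5% and 11.6% of all genes tested. CREB3L1, a membrane-bound relative of ATF6, rose from 77.9 ± 12.2 to 210.3 ± 27.3 (log2 difference 1.42, SE 0.25, limma adjusted p = 0.0069), and CREBZF rose by 1.11. The related CREB3L2 (-0.69), the NF-Y subunit NFYC (-0.92) and MBTPS2 (-0.74), a protease that cuts ATF6, fell, the last not with equal totals (adjusted p = 0.059). Of 10 genes of ER-phagy and ER shape 2 fell and none rose (median -0.39), beside 11.6% and 12.5% of all genes tested. RETREG1, a receptor for autophagy of the ER, fell from 1011 ± 165 to 276 ± 27.8 (log2 difference -1.86, SE 0.20, limma adjusted p = 0.00083). The membrane-fusing GTPase ATL3 also fell (-1.21). Among 11 other oxidoreductases TXNDC11 fell (-1.20; list median -0.18), among 14 genes of the oligosaccharyltransferase and signal peptidase the catalytic subunit STT3A fell (-0.57; -0.29), and among 10 genes of glycan processing FBXO2 rose (0.63; -0.06). STT3A was not called by edgeR or with equal totals (adjusted p = 0.055 and 0.087). None of 14 genes of ER retrieval and export passed limma or edgeR with 6 libraries (median -0.28). KDELR3, a receptor that returns ER proteins from the Golgi, had a log2 difference of 0.77 (limma adjusted p = 0.059) and was called higher by DESeq2 (adjusted p = 0.042) and with equal totals (adjusted p = 0.037). Its relatives KDELR1 and KDELR2 had 0.33 and -0.48 (limma adjusted p = 0.24 and 0.072). Without 2D replicate 3 the 3 receptors passed, KDELR1 at 0.49, KDELR2 at -0.59 and KDELR3 at 1.06 (adjusted p = 0.030, 0.0093 and 0.0011). The same fit called 22.6% of all genes tested higher and 23.0% lower. In it 2 of 14 genes of retrieval and export were higher and 6 lower. The counts higher and lower were 3 and 3 of 10 in glycan processing and 1 and 4 of 14 in the oligosaccharyltransferase list. They were 2 and 3 of 11 among other oxidoreductases and 1 and 5 of 16 among further ERAD genes. In ATF6 activation they were 3 and 5 of 12, and in ER-phagy and shape 0 and 5 of 10.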

How the data were processed

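RNA of 3 adherent and 3 sphere libraries of M14 cells was analysed, grouped and numbered by the sample titles. The library kit, TruSeq RNA v2 per the labels' protocols, selects poly(A) RNA and keeps no strand. The submitters' processing notes name GRCh38, featureCounts 1.5.0, HISAT2 and DESeq2; the annotation and other versions were not given in the sources used here. Deposited values are a signal, that is a count per gene divided by 1 size factor per library: 100% of values were whole multiples of 1 step within 0.01 of a read. The 6 empty columns were not used. Symbols matched 26506 of 26748 genes.

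Genes with a mean of at least 10 were tested (15598) with limma 3.58.1 (R 4.3.3) on log2(value + 1), eBayes with a trend, and Benjamini-Hochberg adjustment at 0.05. This scale understates the change of low genes. Each fit was repeated with a pseudocount of 0.1 or 10, without the filter or with a minimum mean of 50, after TMM or scaling to equal totals, with a replicate block, by edgeR 4.0.16 and DESeq2 1.42.0 on the recovered reads (edgeR called 3657 genes), and without each library in turn (leave-one-out). The fit was tested on simulated counts. Members, role groups, lists and the naming rule were chosen with earlier results of these data known. The rule gives library values for members called with all libraries, those called without 2D replicate 3 with a change of at least 1, HSPA5, HSP90B1, XBP1, ERN1, EIF2AK3 and ATF6, and the member highest per kb in each group; of the other lists it names up to 3 called genes per direction. SDF2L1, SYVN1, SSR4, TXNDC5, the KDEL receptors and the other genes named beyond it, and the promoter elements, were chosen after values were seen. Exon lengths, positions and overlaps came from GENCODE 29, 75-base windows shared between genes from its transcripts, and promoter sequences from RefSeq (GRCh38.p14). Python 3.11.15 was used.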

Additional observations from a re-analysis of the deposited data

How the results depend on the processing

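The count of genes called was 3766 and that of members 9. Over the leave-one-out fits the first ranged from 1190 (without 3D replicate 3) to 7111 (without 2D replicate 3) and the second from 2 to 22. Leaving out both 2D replicate 3 and 3D replicate 2, an alternative added after the data were seen, called 9041 genes and 29 members. Pseudocounts, filters and TMM kept each of the 42 members on its side of the threshold with the same sign. Equal library totals moved the median of all genes from -0.02 to 0.11 and that of the members from -0.24 to -0.10. HSPA5, CANX, SEC63 and SEL1L then lost their calls (limma adjusted p of 0.065, 0.069, 0.061 and 0.064) and CRELD2 gained one. All 9 calls were shared by edgeR, which added HERPUD1, and by DESeq2, which added HERPUD1, ERN1, DNAJB9 and CRELD2. Same-numbered libraries did not deviate together (correlations of -0.08, -0.14 and 0.04), so the numbers were not taken as pairs. With the replicate block 3222 genes (20.7%) and 10 members were called, without HSPA5 and CANX and with CRELD2, DNAJB9 and HERPUD1.

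Signs turned in 8 members, each with a log2 difference under 0.2. With equal totals it was 0.0011 in HSP90B1, 0.043 in DNAJB11, 0.091 in TXNDC5, 0.12 in SSR1, 0.080 in EDEM2 and 0.12 in DERL2. By DESeq2 and edgeR it was 0.16 and 0.17 in TXNDC5, 0.024 and 0.031 in SSR1 and 0.020 and 0.026 in DERL2. With any 1 library, or 2D replicate 3 and 3D replicate 2, left out it ranged from -0.18 (without 3D replicate 2) to 0.016 (without 2D replicate 3) in DNAJB11, -0.52 (without 3D replicate 2) to 0.21 (without 3D replicate 1) in TXNDC5, -0.33 (without both) to 0.13 (without 2D replicate 1) in SEC61G, -0.19 (without both) to 0.096 (without 3D replicate 3) in SSR1, -0.050 (without 2D replicate 3) to 0.19 (without 2D replicate 2) in SYVN1, -0.19 (without 2D replicate 2) to 0.048 (without 2D replicate 3) in EDEM2 and -0.22 (without both) to 0.070 (without 2D replicate 1) in DERL2. The cause was not tested.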
